A study of Homo sapiens with 40 samples.

Results

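An alternative 3' splice site is a second place where an intron can end, so that the exon after it is longer in 1 mRNA and shorter in another. Members here were pairs of introns of 1 gene and strand that share a 5' splice site, have 3' splice sites over 12 nt apart and lead into exons that overlap. The transcript models held 1040 such pairs in 763 genes, of 1518 pairs at any distance in 1103 genes and of 73689 introns counted per gene. The extended form is the mRNA that uses the 3' site nearer to the shared 5' splice site, and it keeps a segment of exon that the shorter form lacks. Members were chosen by the positions of splice sites in the models, so their number and their distances are a description and carry no test.

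The cells were NPC, neural progenitor cells made from H9 by dual-SMAD inhibition, and untreated H9 ESC as control. H9 is an established human embryonic stem cell line, so both cell types come from 1 line. In each cell type the fractions were heavy polyribosome (5 or more ribosomes), light polyribosome (2 to 4 ribosomes), monosome and cytosol, all taken as polyadenylated RNA, which makes 8 groups sequenced with 2 long-read libraries each (16 in all) and again with 3 short-read libraries each (24 in all). What was analysed is 1 catalogue of 19972 transcript models of 9460 genes, which lists exons and coding regions but gives no library a value of its own. The cell types and fractions were therefore not compared, depth is unknown, and a model says that an mRNA was assembled, not how abundant it was. Of the marker genes listed for this check, models were found for 10 of 10 pluripotency genes, 6 of 10 neural progenitor genes (PAX6, OTX2, NES, FABP7, EMX2 and VIM) and 3 of 9 genes listed under other cell types (AFP, COL1A1 and THY1). Being listed under other cell types does not mean that a gene is absent from ESC or NPC.

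The 3' end of an intron is read by the U2AF heterodimer, whose larger subunit binds the pyrimidine-rich tract and whose smaller subunit contacts the AG at the intron's last bases, while SF1 binds the branch point upstream. Spliceosomes often choose between nearby AGs, and the choice adds or removes the sequence between them. In a coding exon, a segment made of whole codons leaves the downstream reading frame as it was, and any other length shifts it. A stop codon well upstream of the last junction can mark an mRNA for nonsense-mediated decay, which acts during translation.

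No genome was used here, so sequence could be read only in RefSeq's windows around annotated gene starts and in miRNA hairpins. Sequences are shown for 4 of the 11 members with both sites in such a window, picked after their letters were seen. Each is 20 intron bases and 3 exon bases from RefSeq (GRCh38.p14), 5' to 3' on the strand of the gene, with the AG that ends the intron in capitals. They show how a near and a far site of the same intron compare letter by letter.
CARS1 near site, chr11:3041029-3041051, minus strand: tttttggtaatcctgtgcAGtgt
CARS1 far site, chr11:3040982-3041004, minus strand: ttccttcattcctaacaaAGgaa
CNDP2 near site, chr18:74499862-74499884, plus strand: aacacgtgctttctgggcAGgtc
CNDP2 far site, chr18:74499917-74499939, plus strand: cagttgctcttccttccaAGaac
MAGOHB near site, chr12:10613003-10613025, minus strand: agaataataatatgttttAGgtg
MAGOHB far site, chr12:10612976-10612998, minus strand: cgtgtaattgttcaccatAGgac
TAGLN3 near site, chr3:111999227-111999249, plus strand: cttttctttcccgtttgtAGgtg
TAGLN3 far site, chr3:111999306-111999328, plus strand: ctttgctgctgctgggccAGgtt

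Of the 1040 members, 11 had both sites in these windows, with 10 distinct near sites and 10 distinct far sites. A C stood before the AG at 7 near and 5 far sites, a T at 3 near and 3 far sites, and an A at 2 far sites, which are those of CARS1 and CNDP2 printed above. The number of pyrimidines among the last 20 intron bases had a median of 13.5 at near sites (range 8 to 17) and 13.5 at far sites (range 11 to 16), against 14 over all 369 sites of the catalogue whose last 20 intron bases lay in a window. The near site of MAGOHB, an exon junction complex subunit, had the fewest, 8, in a run rich in A and T. The 2 CARS1 sites, in the gene of cysteinyl-tRNA synthetase, are 47 nt apart with no other AG between them, whereas the 55 nt segment of CNDP2, which encodes a dipeptidase, held 5 other AGs. With so few members, mostly in 5' untranslated regions because the windows lie near gene starts, these letters describe the printed sites and not members in general.

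Distances between the 2 sites had a median of 64.5 nt (quartiles 35.75 and 146 nt, range 13 to 3020 nt). The 478 pairs within 12 nt had a median of 3 nt, and 1538 alternative 5' splice sites over 12 nt, the mirror event, had a median of 105.5 nt. Just inside the threshold lay 48 members at 13 to 17 nt, among them DUSP12, HAUS8, PIH1D1 and ZNF133 at 13 nt. Just outside lay 29 pairs at 8 to 12 nt, among them CNMD, FAM120AOS, GPS1, PCBP2 and PHKG2 at 12 nt. The distance was divisible by 3 in 12 of the 48 members (25%) and in 15 of the 29 pairs (51.7%). Multiples of 3 are 15 nt alone in the first window, but 9 and 12 nt in the second. These 2 shares therefore differ in part by the choice of windows and say nothing about a change at the threshold.

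**Figure D1:**
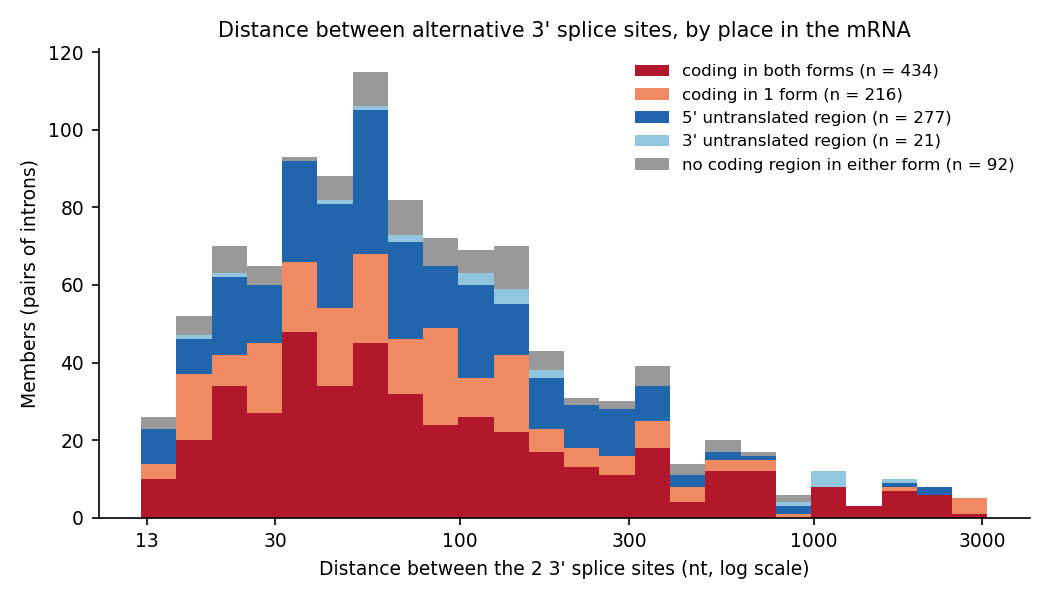
Histogram of the distance between the 2 3' splice sites of each member (nt, log scale), stacked by where the pair lies in the mRNA. Bars count pairs of introns, the 434 pairs coding in both forms are the largest class, and the median over all 1040 members is 64.5 nt.

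The members drew on 887 shared 5' splice sites, of which 799 had 2 alternative 3' sites, 81 had 3, 5 had 4, 1 had 5 and 1 had 7. Members of 1 gene can thus share a site, and the 1040 members held 987 distinct pairs of 3' sites. Members were found in 16.1% of the 4725 genes with at least 2 models. By gene type, 917 members lay in protein-coding genes, 66 in long non-coding RNA genes and 18 in pseudogenes, and 39 lay in genes with no type in RefSeq's table. Introns of the extended form, by definition the shorter of the 2 introns of a member, had a median length of 905 nt. Introns of the shorter form had a median of 1106.5 nt, and all 73516 distinct introns one of 1601 nt. For introns of the extended form the median was 1587 nt in pairs within 12 nt and 1221.5 nt in alternative 5' sites over 12 nt. The exon downstream had a median length of 220 nt in the extended form and 128 nt in the shorter form. In 924 members (88.8%) at least 1 pair of models had downstream exons that ended at the same base.

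By place, 434 members (41.7%, 95% Wilson interval 38.8 to 44.8%) were coding in both forms, meaning that the bases on each side of the junction lay in the coding region in at least 1 model of each form. Another 216 (20.8%) were coding in 1 form, 277 (26.6%) lay in the 5' untranslated region, 21 (2.02%) in the 3' untranslated region, and 92 (8.85%) had no coding region in either form. These places are those of the junctions, so a segment placed in the 5' untranslated region can still hold the start of a coding region. Members were more often coding in both forms than alternative 5' splice sites over 12 nt, at 41.7% against 287 of 1538 (18.7%), a difference of 23.1 points (95% interval 19.5 to 26.6; two-sided Fisher's exact test, adjusted p = 2.08e-36). They were less often coding than pairs within 12 nt, at 41.7% against 273 of 478 (57.1%), a difference of -15.4 points (95% interval -20.7 to -9.98, Fisher's exact test, adjusted p = 5.65e-08). That direction rests on pairs at exactly 3 nt: without them 52 of 168 pairs within 12 nt (31.0%) were coding, which made the difference 10.8 points in place of -15.4 (Fisher's exact test, adjusted p = 0.00852). The intron was the first of at least 1 model in 431 members (41.4%) and in 185 of the 478 pairs within 12 nt (38.7%). Over all 73516 distinct introns, counted singly and not in pairs, it was 13900 (18.9%). It was the first in each model for 224 of the 277 members in the 5' untranslated region (80.9%) and for 41 of the 434 coding members (9.45%).

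Distances divisible by 3 were more frequent among coding members than among the rest. The distance was divisible by 3 in 233 of 434 coding members (53.7%, 95% interval 49.0 to 58.3%) and in 160 of the 606 other members (26.4%, 23.0 to 30.1%). The difference was 27.3 points (95% interval 21.3 to 33.0; two-sided Fisher's exact test, adjusted p = 1.43e-18 over 5 tests). Remainders of 1 and 2 on division by 3 were found in 106 and 95 coding members. Among the others, the share divisible by 3 was 18.1% for members coding in 1 form, 28.2% in the 5' untranslated region and 35.9% (33 of 92) for members with no coding region. Against the last class alone, coding members differed by 17.8 points (95% interval 6.60 to 28.0, Fisher's exact test, adjusted p = 0.00196). Whether a member counts as coding in both forms rests on the deposited coding regions, whose start and end can themselves change with the frame. This class and that of members coding in 1 form are therefore not independent of the distance, and the first comparison includes both.

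**Figure D2:**
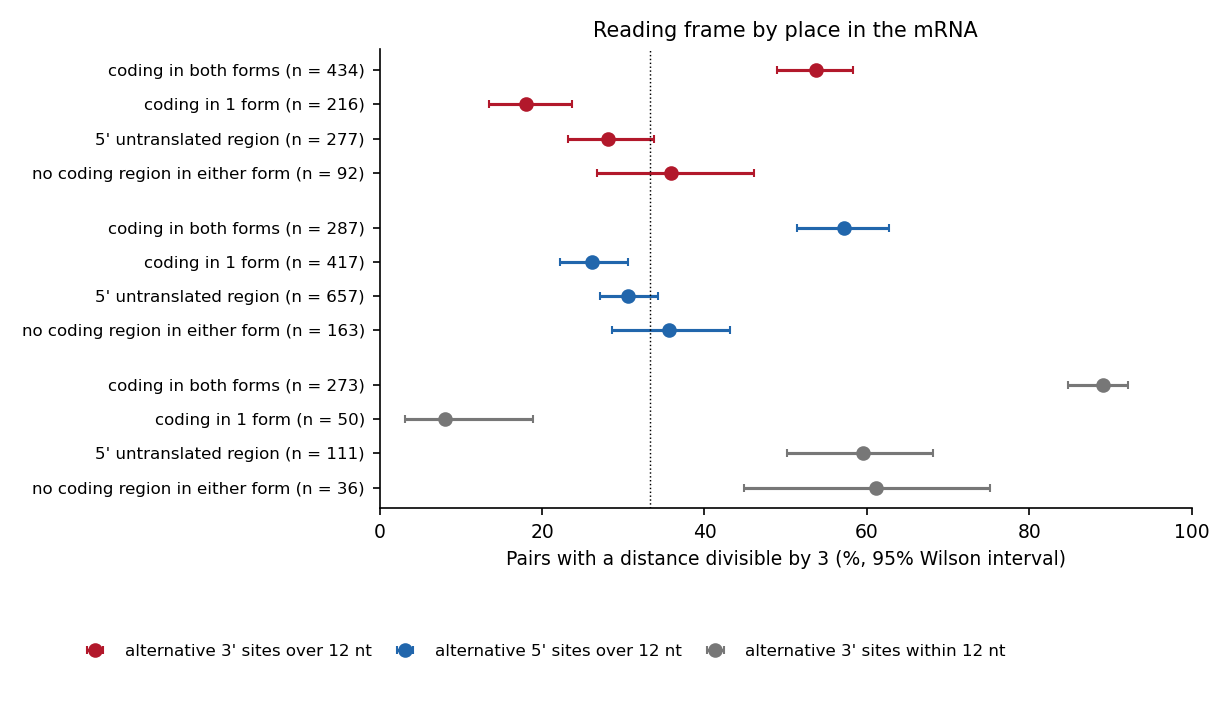
Share of pairs whose distance is divisible by 3 (percent, points, with 95% Wilson intervals as bars), by place in the mRNA, for members (red), alternative 5' splice sites over 12 nt (blue) and alternative 3' splice sites within 12 nt (grey). The dotted line marks 1 in 3; coding members stand at 53.7%, coding alternative 5' sites at 57.1% and coding pairs within 12 nt at 89.0%, of which 221 of 273 lie at exactly 3 nt.

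Coding members were less often divisible by 3 than coding pairs within 12 nt, at 53.7% against 243 of 273 (89.0%), a difference of -35.3 points (95% interval -41.0 to -29.0, Fisher's exact test, adjusted p = 1.14e-23). Of these 273 pairs, 221 lay at exactly 3 nt. Without them 22 of 52 (42.3%) were divisible by 3, and the difference turned to 11.4 points and did not pass the test (Fisher's exact test, adjusted p = 0.177). Against coding alternative 5' splice sites over 12 nt (164 of 287, 57.1%), the difference of -3.46 points did not pass the test (95% interval -10.8 to 3.96, Fisher's exact test, adjusted p = 0.400). By distance, the share among coding members was 74.4% at 13 to 30 nt (67 of 90), 59.5% at 31 to 60 nt (72 of 121), 42.4% at 61 to 120 nt (36 of 85), 49.2% at 121 to 300 nt (32 of 65) and 35.6% over 300 nt (26 of 73). These classes were not tested against each other, and neighbouring intervals overlap. The other members lay between 22.9% and 31.0% in the same classes. Coding members whose downstream exon was internal were divisible by 3 in 177 of 288 cases (61.5%), against 46 of 117 (39.3%) where it was the last exon, a difference of 22.1 points (95% interval 11.4 to 32.1, Fisher's exact test, adjusted p = 8.88e-05). Distance was not taken into account there, so exon position and distance cannot be told apart.

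**Figure D3:**
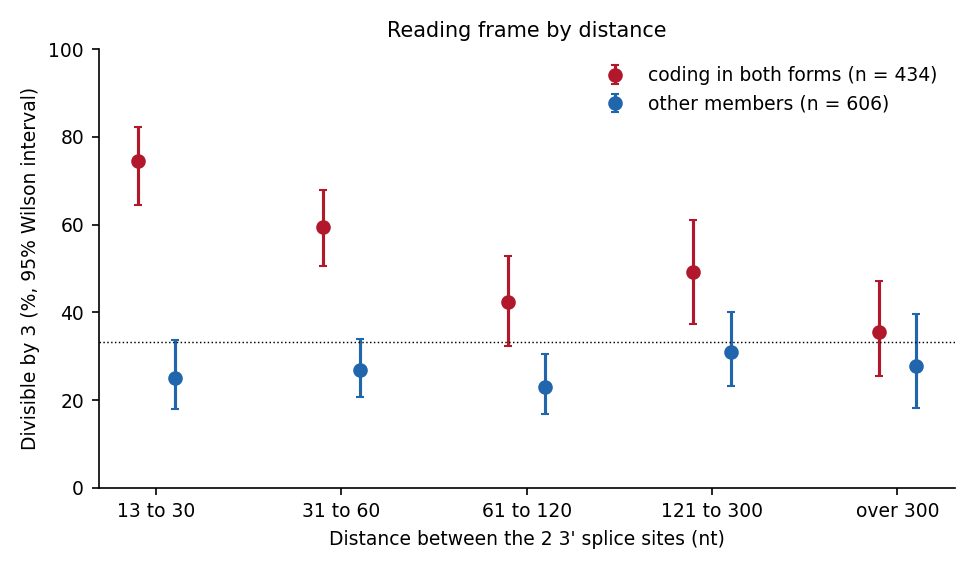
Share of members whose distance is divisible by 3 (percent, points, with 95% Wilson intervals as bars) by class of distance (nt), for members coding in both forms (red) and other members (blue). Coding members stand at 74.4% in the shortest class and 35.6% in the longest, while other members stay between 22.9% and 31.0%; the dotted line marks 1 in 3.

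What a segment does to the protein can be read where 2 models have the same chain of introns except for this one, which held for 389 of the 434 coding members. Among the 221 of these whose distance was divisible by 3, 185 (83.7%) kept both the start and the stop of the coding region. The 2 proteins then differ by exactly the codons of the segment, as arithmetic requires, with a median of 14 codons (quartiles 9 and 23, range 5 to 226). In 26 more the start was shared and the stop differed, and in each of the 26 the stop of at least 1 extended model lay inside the segment. Among the 168 not divisible by 3, 144 (85.7%) kept the start and had another stop, and 0 kept both. Keeping both is not possible there, because the 2 coding regions would then differ by a length that is not whole codons. In these 144 the extended form had fewer codons in 52. The stop of at least 1 extended model, not always that of the otherwise identical pair, lay inside the segment in 48. Their difference in codons, extended minus shorter, had a median of 24 and ran from -307 to 724.

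**Figure D4:**
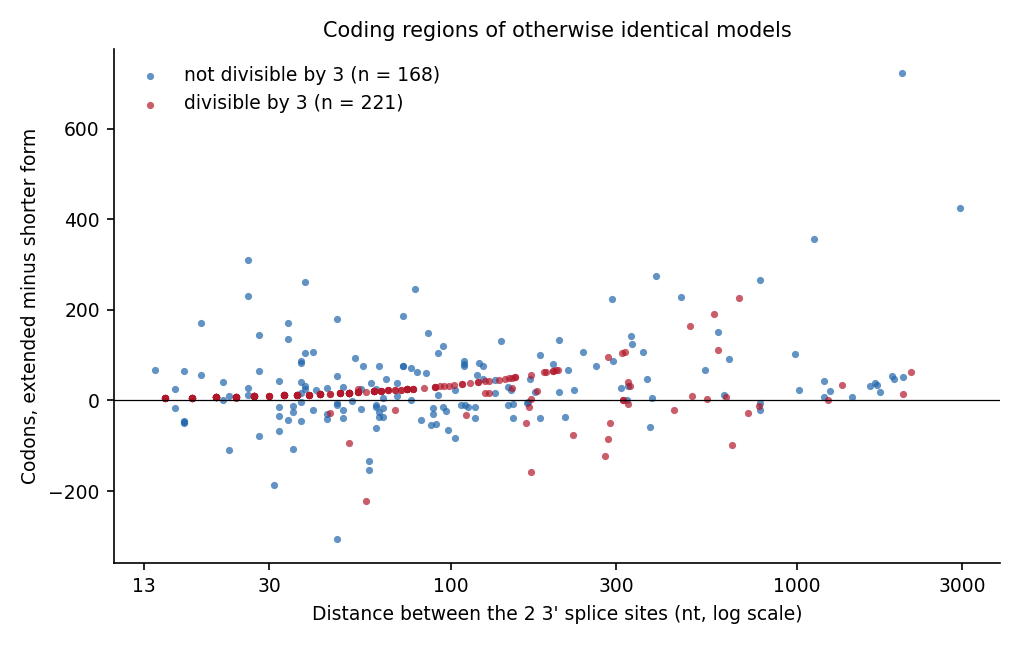
Codons of the extended form minus those of the shorter form in otherwise identical models (y axis), against the distance between the 2 3' splice sites (nt, log scale), 1 point a coding member. Members divisible by 3 (red, n = 221) lie mostly on the curve of 1 codon per 3 nt, and members not divisible by 3 (blue, n = 168) scatter on both sides of 0, from -307 to 724 codons.

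Examples of in-frame segments follow, named by rule. In this and the later examples of coding members, codons given for the extended and the shorter form are those of a pair of otherwise identical models. Other models of the same form can have more or fewer codons. OTX2, a homeobox transcription factor of the anterior neural plate, had a 24 nt segment (chromosome 14, 56804340 to 56804363, GRCh38.p14) in 2 models of 297 codons, against 289 codons in 3 models without it. RBM39, a splicing factor that resembles U2AF's larger subunit, had an 18 nt segment with 531 codons in the extended and 525 in the shorter of 2 otherwise identical models. MLST8, a subunit of both mTOR complexes, had an 18 nt segment as well, with 333 codons in the extended form and 327 in the shorter form. In ARL6IP4 a segment of 24 nt separated 238 codons from 230, and each form was in 3 models. CCDC74A, which has the close paralogue CCDC74B and so may share reads with it, had a 198 nt segment, with 421 codons in the extended form and 355 in the shorter form.

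The longest segments that left start and stop in place, picked after their values were seen, were those of DRD4, a dopamine receptor, with 454 codons in the extended form and 228 in the shorter form, and of ART5, an ADP-ribosyltransferase family member, with 292 and 100 codons. NFYC, a subunit of the CCAAT-binding factor NF-Y, had 440 codons in the extended form and 336 in the shorter form. In RUSC1 the extended form had 434 codons and the shorter form 328. By distance alone, the 5 longest coding members divisible by 3 were those of CHTF8, SKP2, LRRC51, BUB3 and DMAC2, from 2124 nt to 1026 nt. In each of the 5 the segment held the stop of at least 1 extended model. BUB3, of the spindle checkpoint, had 1227 nt between the sites, yet 329 codons in the extended form and 327 in the shorter form. SKP2, an F-box protein that marks cell cycle inhibitors for degradation, had 2022 nt between the sites, with 425 codons in the extended form and 411 in the shorter form.

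Among members not divisible by 3, the coding region could be longer or shorter in the extended form. IRF3, a transcription factor of the interferon response, had 16 nt between its sites, with 453 codons in the extended form and 428 in the shorter form. CA14, a membrane-bound carbonic anhydrase, had 119 nt, with 338 codons in the extended form and 282 in the shorter form. Its 2 coding regions had different starts and the same stop. The largest gains, picked after their values were seen, were in ETAA1, an activator of the ATR kinase, with 927 codons in the extended form and 203 in the shorter form, and in ZNF317, a zinc finger protein, with 596 and 172. The largest losses were in ARRDC1, an arrestin-domain protein, with 127 codons in the extended form and 434 in the shorter form, and in SETD6, a lysine methyltransferase, with 263 and 450. In PARP2, an enzyme of the DNA damage response, the 26 nt segment went with 571 codons, against 261 codons in the otherwise identical shorter form, which was a candidate for decay.

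A decay candidate was a coding model with over 50 nt between the end of its coding region and its last junction, which held for 541 of 17247 coding models of the catalogue (3.14%). At least 1 candidate was among the models of 79 of the 434 coding members (18.2%). A member counts here if any model of either form is a candidate, so this share cannot be set against the 3.14% of single models. The share of members with a candidate was 53 of 201 (26.4%, 95% interval 20.8 to 32.9%) for members not divisible by 3. It was 26 of 233 (11.2%, 7.73 to 15.8%) for those divisible by 3. The difference was 15.2 points (95% interval 7.90 to 22.6; Fisher's exact test, adjusted p = 9.20e-05). It missed the threshold with a decay rule of 150 nt (5.35 points, Fisher's exact test, adjusted p = 0.114) and among members with each form in at least 2 models (20.8 points, adjusted p = 0.111).

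Candidates lay in the extended form alone in 46 members and in the shorter form alone in 26, a share of 63.9% of 72 (95% interval 52.4 to 74.0%, two-sided exact binomial test, adjusted p = 0.0306). With 1 pair per gene the difference between the 2 shares was 12.3 points in place of 27.8 and did not pass the exact binomial test (adjusted p = 0.427); the difference passed in 3 of 10 alternatives. Restricted to otherwise identical models, the extended model was a candidate in 31 of 389 members (7.97%) and the shorter model in 20 of 389 (5.14%). Among the 168 of these not divisible by 3, the extended model was a candidate in 18 and the shorter model in 17. Among the 221 divisible by 3 the counts were 13 and 3. None of these counts was tested.

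Candidates in 1 form alone were most numerous in MMAB, which encodes the adenosyltransferase of the cobalamin pathway (chromosome 12, 109561105 to 109561329). All 4 of its models with the nearer site were candidates and neither of the 2 with the farther site was. In the otherwise identical models the extended form had 174 codons and the shorter form 251, although the distance of 225 nt is divisible by 3. Only 1 of those 4 models has an exon that reaches the other form. In CDK10, a cyclin-dependent kinase, 3 of 10 extended models were candidates, and in TMEM134 3 of 6 were; each had 1 shorter model, which was not a candidate. In both genes the downstream exon is the last one, and neither of the otherwise identical models was a candidate. ING4, a subunit of a histone acetyltransferase complex, went the other way (chromosome 12, 6652310 to 6652418). Both coding models of its shorter form were candidates and none of the 6 coding models of its extended form was, with 173 codons in the shorter and 250 in the extended of the otherwise identical models. PAXX, a factor of non-homologous end joining, had 2 candidates among its 4 extended coding models and none in its 1 shorter model.

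In-frame segments that carried a stop and made the extended model a candidate were found, beside MMAB, in a few enzymes named after their values were seen. UROS, uroporphyrinogen III synthase, had 243 codons in the extended form and 293 in the shorter form, over 165 nt. ACOT8, a peroxisomal thioesterase, had 227 codons in the extended form and 320 in the shorter form, over 51 nt. LARGE2, a glycosyltransferase, had 563 codons in the extended form and 722 in the shorter form, over 171 nt.

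DHPS, whose product makes the first step of the hypusine modification of translation factor eIF5A, shows how sites combine. Its 6 members, all coding in both forms, arose from 2 5' splice sites and 3 3' splice sites (chromosome 19, 12676079 to 12676142), with distances of 27, 37 and 64 nt. Counted with introns from the first 5' splice site, the 3' sites lay at 1149, 1186 and 1213 nt. Without the cassette exon that ends at the second 5' splice site, the site at 1149 nt gave a model of 278 codons, that at 1186 nt 323 and that at 1213 nt 314, and the first of these was a decay candidate whose coding region ended at 1198 nt. With the cassette exon the site at 1149 nt gave 370 codons (328 in a model with another start), that at 1186 nt 373 and that at 1213 nt 364, and none was a candidate. The step of 27 nt between the sites at 1186 and 1213 nt thus removed 9 codons with or without the cassette exon.

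**Figure D5:**
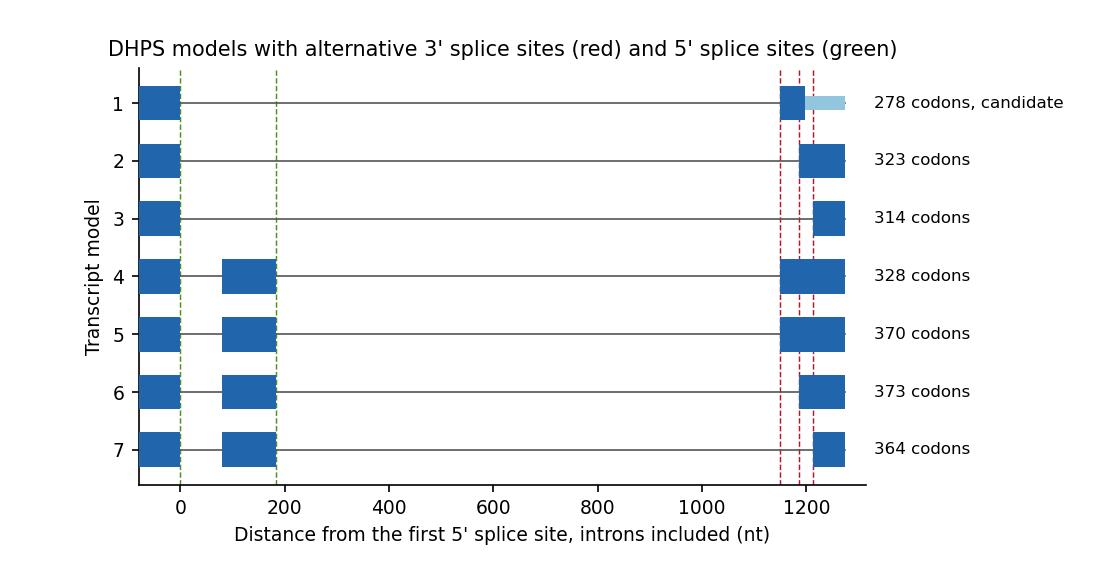
Map of 7 DHPS transcript models from the first 5' splice site (distance in nt with introns included; thin boxes are exons, thick boxes coding sequence, dashed lines 3' splice sites in red and 5' splice sites in green). Model 1, which joins the first 5' site to the 3' site at 1149 nt, has 278 codons and is the decay candidate; models 2 to 7 have 314 to 373 codons.

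Several genes held many members that were not coding in both forms. RNF167, a ubiquitin ligase, had 7 members from 3 5' splice sites, at 50, 386 and 436 nt, all with their junctions in the 5' untranslated region. At 50 and 436 nt the segment held the start of a coding region in at least 1 extended model. In those members the shorter models had 316 codons and the extended models up to 351. PLD3, of the phospholipase D family, had 6 members in the 5' untranslated region (35 to 165 nt). MAGED4 had 6 from 1 5' splice site, each divisible by 3 (21 to 90 nt). MAGED4 has the near-identical copy MAGED4B, so its models are uncertain. The gene with the most members, ENSG00000289527 on chromosome 10, had 13 from 2 5' splice sites. None was coding in both forms: some lay in untranslated regions, some were coding in 1 form and some had no coding region in either form. The gene also held the longest distance of 3020 nt. Its members share sites and models and are not separate observations.

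In the 5' untranslated region, 242 of the 277 members had otherwise identical models that both carry a coding region, and 197 of these (81.4%) had the same start and stop in both forms. The start differed and the stop was shared in 40, and the extended form had more codons in 43. The segment held the start of a deposited coding region in 53 of the 277. CENPK, a centromere protein, had such a start in each of its 3 extended models (48 nt). ZNF232 had it in 4 of its 5 extended models (100 nt). Of 159 members coding in 1 form with such models, 145 (91.2%) shared the stop and differed in the start, and the extended form had fewer codons in 95. A moved boundary of the coding region is largely built into that class. EMC9, of the ER membrane complex, had 135 codons in its 4 extended models, each starting inside the 175 nt segment, and 209 codons in its 2 shorter models. These examples were picked with their values known.

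The lists of the translation machinery held 8 members, too few for a statement on the lists, of which 0 were coding in both forms, beside 41.7% of all members. Of 47 ribosomal protein genes with at least 2 models, 4 had a member and none was coding in both forms: RPL17 (249 nt), RPL9 (158 nt) and RPLP0 (60 nt) in the 5' untranslated region, and RPL30 (57 nt) coding in 1 form. RPL17 had 185 codons in both forms and RPL9 had 193 in both. Of 25 translation factor genes with at least 2 models, 4 had a member, again none coding in both forms. EEF1B2, a subunit of the exchange factor for eEF1A, had 226 codons in both forms (46 nt), and EIF3B, a core subunit of eIF3, had its member in the 3' untranslated region (75 nt). EIF2B4, of the exchange factor for eIF2, had 5 extended models of 508 to 545 codons and 1 shorter model of 252 codons (26 nt). EIF3G had 194 codons in its extended and 321 in its shorter model (84 nt).

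Among 13 genes of 3' splice site and branch point recognition with at least 2 models, 4 had a member, with 3 of their 5 members coding in both forms. SF1, the branch point binding protein, had a 637 nt segment (chromosome 11, 64765519 to 64766155) in a last exon, with 640 codons in the extended form and 549 in the shorter form. U2AF1L4, a relative of U2AF's smaller subunit, had 2 members, of 46 nt in the 5' untranslated region and of 25 nt coding in 1 form. Of 5 decay and exon junction genes with at least 2 models, MAGOHB had the 1 member, whose 2 sites are printed above, with 103 codons in both forms. Neural progenitor genes held 2 members in 4 genes with at least 2 models, OTX2 and HES4, a basic helix-loop-helix repressor (174 nt). No member was found in 8 SR protein, 16 hnRNP, 8 pluripotency or 2 neuron genes with at least 2 models. Over all genes with at least 2 models the share with a member was 16.1%, and no list was tested against it.

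In 904 members (86.9%) 1 of the forms was in a single model, and in 136 (13.1%) each form was in at least 2. The extended form was in more models than the shorter form in 296 members (28.5%, 95% interval 25.8 to 31.3%), in as many in 507 and in fewer in 237. Models are distinct isoforms, so these counts say nothing about the amount of either form. The coding members with most models of their rarer form were those of FUOM, a fucose mutarotase (69 nt), and of OCEL1 (206 nt), each with 4 extended and 6 shorter models. CERS4, a ceramide synthase, had 3 extended and 12 shorter models (58 nt), with 262 codons in the extended and 395 in the shorter of otherwise identical models. SNX27, a sorting nexin of endosomal recycling, had 3 extended and 7 shorter models around a 777 nt segment.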

How the data were processed

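The authors deposited 1 catalogue of transcript models whose values are positions in nt (first and last base of each exon and coding region, counted from 1). Its label says long-read, and per the file its source column reads PacBio. Per the labels' protocols, libraries were strand-specific and made from polyadenylated RNA after Frac-seq, amplified over 15 PCR cycles (over 17 for monosomes); R2C2 was used for long reads. STAR 2.7.8a and Salmon 1.9.0 appear in the submitters' processing notes, which assign them no role. The steps that assembled and filtered the models and set their coding regions, the build and the libraries used were not given in the sources used here. The catalogue holds no count or value per library, so depth is unknown and intervals cover counting error only.

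As a check of the build, bases were read at the splice sites that fall in RefSeq's GRCh38.p14 promoter and miRNA windows: 494 of 494 3' sites read AG and 2094 of 2124 5' sites read GT (98.6%). Coordinates are printed on that build. Of 763 gene identifiers, 759 matched the symbol table and 4 matched 1 synonym.

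Introns were the gaps between exons. Pairs were found per gene identifier and strand, and a pair of models with overlapping downstream exons was required; 81 members also have models whose exon does not reach the other form. Shares were compared by two-sided Fisher's exact tests and an exact binomial test (Python 3.11.15, scipy 1.17.1), with Benjamini-Hochberg adjustment over the 5 planned tests, threshold 0.05, and separately over 4 tests added after values were seen: the 2 comparisons of coding share, the comparison with members that have no coding region, and internal against last exon. Intervals are Wilson's for shares and Newcombe's for differences. Pairs are not replicates, some share a gene or a site, and the tests describe this catalogue. The scripts were tested on simulated pairs with known answers. Codons include the last one of the deposited coding region.

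The members and gene lists were chosen with earlier results of these data known. Genes were named by rule: the 10 with most members; the 10 coding members with most models of the rarer form; the 10 members with most decay candidates in 1 form and none in the other; up to 4 members a list; up to 5 on each side of 12 nt; and the 5 longest overall and among coding members divisible by 3, ties by models of the gene. Some that meet it are not described. Others are said to be chosen after their values were seen. The planned count of letters at all splice sites needs a genome and was not run.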

Additional observations from a re-analysis of the deposited data

How the results depend on the processing

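Alternatives covered exon ends, support of each form, 1 pair per gene, a distance over 30 nt, joined identifiers, the definition of coding and the decay rule. Leaving out joined identifiers removed 0 members and is not counted further. Limiting models to those whose exons overlap, counting 1 member per pair of 3' splice sites and leaving out pairs at exactly 3 nt were chosen after seeing the data. Of 44 recomputed tests, 33 kept their direction and side of the threshold; of 12 recomputed counts and shares with no test, 10 stayed within the set margin (1.5 times for a count, the 95% interval for a share). Coding members were divisible by 3 more often than other members in all 8 alternatives (17.1 to 31.7 points, Fisher's exact test, largest adjusted p = 0.00313). They were divisible by 3 less often than coding pairs within 12 nt in 7 of 8, and the direction reversed without the pairs at exactly 3 nt (11.4 points, Fisher's exact test, adjusted p = 0.177). That comparison is between groups split by the distance itself and is a description. The added Fisher's exact tests passed with 1 pair per gene (largest adjusted p = 0.00128).

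With each form in at least 2 models, 136 members were left. There the excess of decay candidates in members not divisible by 3 was 20.8 points (Fisher's exact test, adjusted p = 0.111), and the excess in the extended form was 9.09 points (exact binomial test, adjusted p = 1). With a decay rule of 150 nt these were, by the same exact tests, 5.35 points (adjusted p = 0.114) and 31.8 points (adjusted p = 0.0813). The excess in the extended form also missed the threshold of the exact binomial test at 12.3 points with 1 pair per gene (adjusted p = 0.427), 14.6 with coding judged from the shorter form alone (0.280), 23.1 with the whole segment coding (0.102), 24.6 with models limited to overlapping exons (0.0666) and 25.7 with 1 member per pair of 3' sites (0.0517). With coding judged from the shorter form alone, the difference in frame from alternative 5' sites was 1.78 points in place of -3.46 (Fisher's exact test, adjusted p = 0.577). With models limited to overlapping exons, the extended form was in more models in 22.2% of members. Fewer members entered where support or pairs were restricted; elsewhere the cause was not tested. No paired analysis was possible because the catalogue has no value per library. With no depth given, splice sites that lack a model may have been missed.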
